A study of Mus musculus with 26 samples.

Results

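Adipokines are proteins that fat cells release into the blood or the surrounding tissue. The mRNA of 10 adipokines and secreted adipocyte proteins (Adipoq, Lep, Retn, Cfd, Rbp4, Apln, Nampt, Serpina12, Sfrp5 and Agt) was measured in subcutaneous inguinal white adipose tissue of mice that lacked ChREBP, the glucose-responsive transcription factor encoded by Mlxipl. The members were taken by gene name from the array annotation, where they made up 10 of 37074 gene names and had 12 of 56605 probes. Of these, 11 probes of 9 genes passed the filter on dim signals and were tested among 38832 probes (25407 gene names).

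The series held 26 one-colour arrays of 4 groups of male C57BL6/J mice, with a single mouse per array. Total ChREBP KO mice (n = 7) were Mlxipl-null in the whole body and lacked the α and β isoforms. ChREBPβ KO mice (n = 5) carried a CRISPR/Cas9 deletion of the exon specific to ChREBPβ, also in the whole body. Each KO was set against WT mice of its own line (n = 7 in each line). All 4 groups were killed after the same feeding protocol, in which a 24 h fast preceded 18 h of refeeding with food and drinking water that held 20% glucose. The KO affected every tissue, so the mRNA levels in fat cannot be assigned to loss of ChREBP in adipocytes alone. Replicates were separate mice, numbered within each group, and the labels gave 4 wash batches.

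As background, adipokines act on different targets. Adiponectin (Adipoq) circulates in large multimers that are assembled in the endoplasmic reticulum and raises insulin sensitivity, and leptin (Lep) signals the size of the fat stores to the hypothalamus. ChREBP is activated by glucose metabolites, binds as a heterodimer with MLX to pairs of E boxes (carbohydrate response elements), and drives glycolytic and lipogenic genes. The shorter ChREBPβ isoform is transcribed from an alternative promoter that ChREBPα activates.

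The labels were checked on Mlxipl first. In total ChREBP KO its brightest probe fell by 2.29 on the log2 scale (SE 0.12, limma adjusted p = 1.86e-13). In ChREBPβ KO this probe fell by 1.52 (SE 0.13, adjusted p = 6.2e-07). The other Mlxipl probes moved less. One of them fell by 0.90 in total ChREBP KO (adjusted p = 2.25e-06) and differed by −0.68 in ChREBPβ KO (adjusted p = 0.054), and the last differed by −0.13 and 0.04 (adjusted p = 0.158 and 0.97). No spot was saturated on any array. The share of spots well above background was between 70.2% and 76.46% per array, and the correlation of 2 arrays over all tested probes was between 0.953 and 0.997. The mean log2 intensity of 13 adipocyte markers was between 14.25 and 15.70 on the 26 arrays. It was not set against another tissue, so it is no test of tissue identity. Markers of lymphocytes and skeletal muscle differed widely between arrays, as detailed beside the results.

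Each value rests on a 60-base probe. The sequences of 4 probes are shown because they carry the results that follow. The Adipoq and Retn probes separated KO from WT in the total line after quantile normalization. The Cfd probes show how far a pair of readings of that gene can be independent. Capitals mark the stretch of 32 bases that the Cfd probes share. Positions are those of the array annotation for mouse build mm9, and all sequences are written 5′ to 3′ as in the array files.
Adipoq A_51_P458451 (chr16:23157576-23157635, plus strand): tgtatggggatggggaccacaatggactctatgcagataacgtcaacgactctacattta
Retn A_55_P1984806 (chr8:3657312-3657371, plus strand): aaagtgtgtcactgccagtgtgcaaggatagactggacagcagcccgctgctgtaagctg
Cfd A_51_P156955 (chr10:79355302-79355361, plus strand): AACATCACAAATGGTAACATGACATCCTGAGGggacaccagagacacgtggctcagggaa
Cfd A_55_P2744246 (chr10:79355274-79355333, plus strand): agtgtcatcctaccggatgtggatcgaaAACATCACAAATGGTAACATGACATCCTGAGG
The Cfd probes therefore read largely the same bases of the transcript, whereas the Retn probes share no stretch of 10 or more bases and lie apart in the gene. For a gene with several probes the brighter probe is given unless a probe is named.

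Total ChREBP deficiency was accompanied by higher adipokine mRNA. Of 9 tested members, 7 were higher in total ChREBP KO than in WT (limma adjusted p below 0.05) and 0 were lower. Across all 25407 tested genes, each at its brightest probe, 45.8% were called in this comparison, with 25.8% higher and 20.1% lower. After quantile normalization every KO array was above every WT array for 9.96% of all genes, and for 5 of the members. These 5 were Adipoq, Rbp4, Apln, Retn and Cfd. As log2 intensity over the 75th percentile of the array, only Adipoq and Rbp4 of them stayed separate. The share of all genes was not computed on that scale. The median log2 fold change of the 9 members after quantile normalization was 0.50, against 0.05 over all 25407 genes. Adipoq, Rbp4 and Apln rose about 2-fold or more, Retn and Lep rose by less, and Nampt and Cfd moved by under 0.25 on the log2 scale. Sfrp5 and Agt did not pass the test. Marker genes of cell types moved in the same comparison. Of 13 adipocyte markers that are not members 12 were higher (median 0.85), and all 15 lymphocyte markers were lower. With the mean adipocyte marker level as a covariate, a fit chosen after the data had been seen, 0 of 9 members were called, and the share of all probes called was 3.75% in place of 45.5%. The mean marker level did not overlap between KO and WT, so marker level and genotype can hardly be told apart in that fit.

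Adipoq, the insulin-sensitising adipokine, had log2 intensities of 17.45 at the lowest, 17.51 at the median and 17.67 at the highest in total ChREBP KO. In WT these were 16.22, 16.53 and 16.69. The ranges did not overlap, and every KO mouse was above every WT mouse. The difference was 1.05 (SE 0.09, adjusted p = 1.42e-09), a fold of 2.07. The Adipoq spot of WT replicate 8 was not marked as found by the scanner software, but it was well above background and its value was kept in the fit.

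Rbp4, the retinol carrier of plasma that is also made by adipocytes, ranged in total ChREBP KO from 16.33 to 16.95 with a median of 16.63. Its WT values ran from 15.49 to 16.00 around a median of 15.62. Again the groups were separate. The rise was 1.02 (SE 0.11, adjusted p = 8.92e-08), or 2.02-fold.

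Apln, which encodes the peptide ligand of the apelin receptor, was a dim probe with the largest fold among the members. It read 8.94 to 10.08 in total ChREBP KO (median 9.91) and 7.91 to 8.92 in WT (median 8.52). The lowest KO mouse lay just above the highest WT mouse. Over the 75th percentile of the array the groups overlapped, with a lowest KO value of −0.691 and a highest WT value of −0.684. The difference after quantile normalization was 1.26 (SE 0.20, adjusted p = 1.88e-05), a 2.4-fold rise.

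Retn encodes resistin, which opposes insulin action in mice. It was tightly grouped in total ChREBP KO, at 17.74 to 17.88 with a median of 17.84, and spread more in WT, at 17.02 to 17.73 with a median of 17.38. After quantile normalization the groups did not overlap, although the highest WT mouse came close to the lowest KO mouse. As log2 intensity over the 75th percentile of the array they did overlap. There the highest WT mouse (8.49) was above the highest KO mouse (8.33). The rise after quantile normalization was 0.50 (SE 0.09, adjusted p = 0.000104). The second Retn probe gave 0.50 as well (SE 0.07, adjusted p = 8.35e-06).

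Lep was higher in total ChREBP KO with overlap between the groups. It read 8.58 to 9.29 in KO (median 8.92) and 8.29 to 8.84 in WT (median 8.50). The difference was 0.43 (SE 0.17, adjusted p = 0.0365). Nampt, an enzyme of NAD synthesis that is also secreted, overlapped between the groups as well, with 12.08 to 12.45 in KO (median 12.28) and 11.87 to 12.33 in WT (median 11.97). Its difference of 0.22 (SE 0.09, adjusted p = 0.0467) lay close to the threshold. The Lep and Nampt calls were lost when any of 8 or 15 of the 26 arrays, respectively, was left out, with adjusted p values up to 0.0831 and 0.101.

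Sfrp5 encodes a secreted antagonist of WNT5A. Its values were 10.18 to 11.50 in total ChREBP KO (median 10.53) and 8.89 to 10.29 in WT (median 10.01). The difference of 0.88 (SE 0.37) missed the threshold at an adjusted p of 0.0568. Agt, the angiotensin precursor, read 10.24 to 11.86 in KO (median 10.56) and 9.48 to 11.02 in WT (median 10.20), and its difference was 0.48 (SE 0.27, adjusted p = 0.152). Replicate 2 of total ChREBP KO was the mouse with 11.86 for Agt, more than 1 log2 unit above the next KO mouse. Without this mouse the Agt difference was 0.29 (adjusted p = 0.367).

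Serpina12, which encodes the serpin vaspin, was not well above background on 25 of 26 arrays. The exception was a single WT array of the total line. Its median intensity was between 12 and 29.5 over all arrays, and it was not tested.

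**Figure D1:**
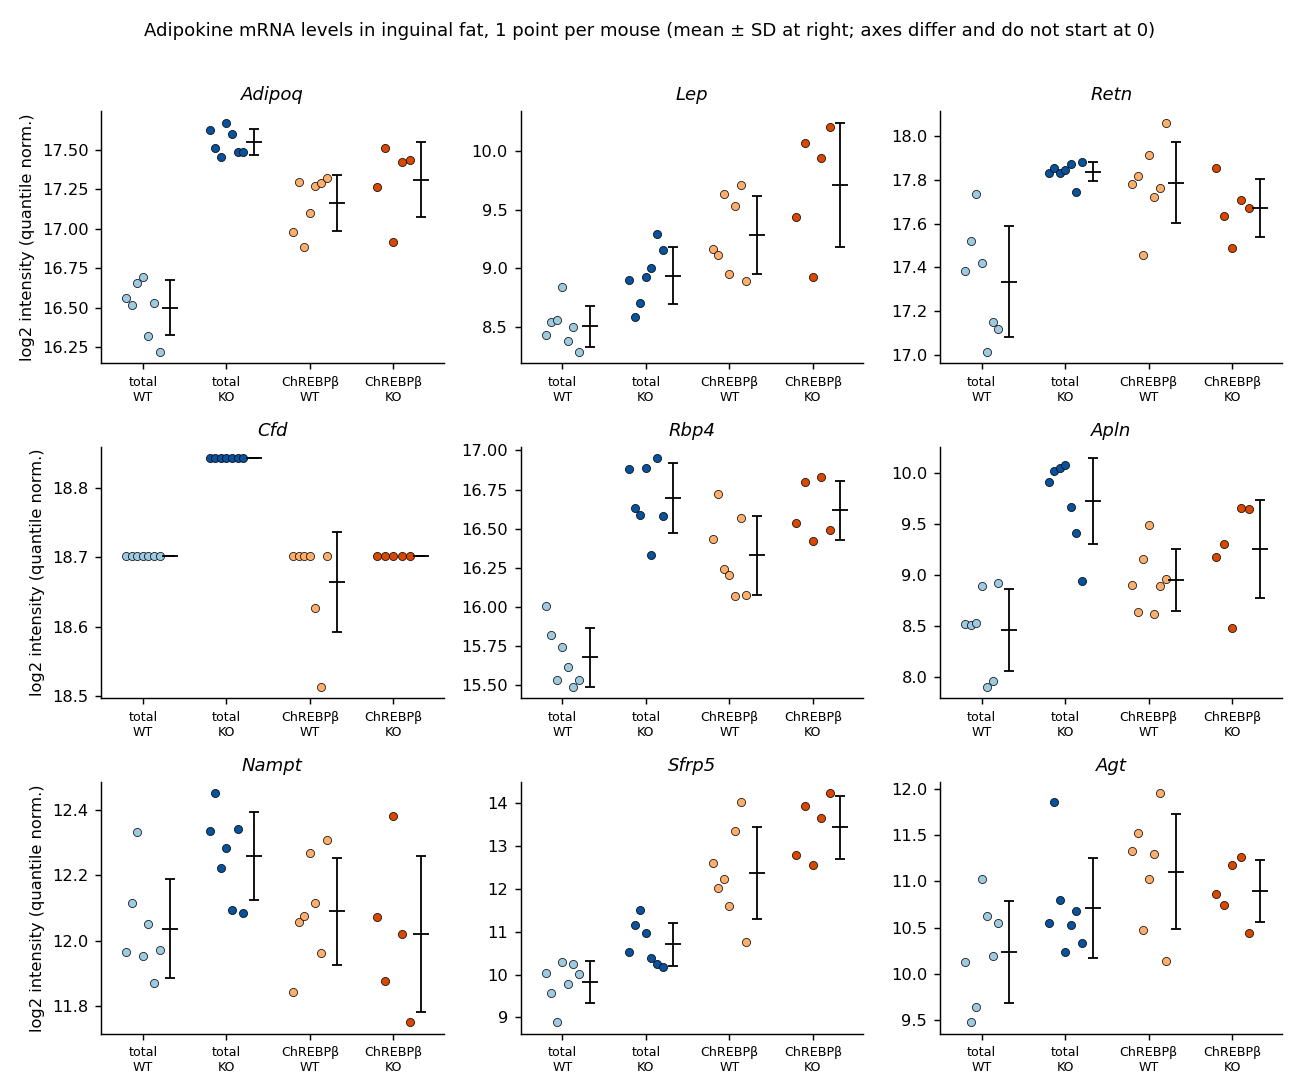
Log2 intensity (vertical axes, quantile normalized) of the 9 tested adipokines at their brightest probe in the 4 groups, with 1 point per mouse and the mean ± SD at the right of each group. Adipoq, Rbp4 and Apln of total ChREBP KO lie above all WT mice of that line, and all 7 Cfd values of each group of the total line coincide.

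Wash batches did not turn any of the called differences at the main probes except for Nampt. Within each of the 4 batches the KO minus WT difference of the total line was 0.88 to 1.17 for Adipoq, 0.72 to 1.20 for Rbp4, 1.09 to 1.51 for Apln, 0.10 to 0.67 for Retn and 0.10 to 0.75 for Lep. For Nampt it ran from −0.05 to 0.41. These within-batch values rest on 1 or 2 arrays per group and were not tested.

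Cfd encodes adipsin (complement factor D), a serine protease of the alternative complement pathway that adipocytes secrete in large amounts. Its value is set by its rank. Quantile normalization gives each array the same set of values, so a probe near the top takes the value of its place in the order. The brighter Cfd probe held a brightness rank between 2 and 24 among all non-control spots, where replicated probes count more than once. It took 4 distinct values and read 18.70 on 17 of 26 arrays. It was 18.84 on all 7 total ChREBP KO arrays and 18.70 on all 7 WT arrays of that line, with an SD of 0 in each group. The resulting difference was 0.14 (SE 0.04, adjusted p = 0.00251), and the SE came from the spread that limma borrowed from other groups and probes.

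The probes that outranked Cfd were identified after their values were seen. The probe for Rn18s, the 18S ribosomal RNA, was brighter than Cfd on every array. The probe for Fasn (fatty acid synthase, a lipogenic gene) was brighter than Cfd on all 7 WT arrays of the total line, on all 5 ChREBPβ KO arrays and on all 7 WT arrays of the ChREBPβ line, and on 0 of 7 total ChREBP KO arrays. The step from 18.70 to 18.84 in total ChREBP KO was thus a change of place with the Fasn probe.

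Without quantile normalization the Cfd groups overlapped. As log2 intensity over the 75th percentile of its array, the 7 total ChREBP KO mice averaged 9.17 ± 0.12 (SD) for the brighter probe. The 7 WT mice averaged 9.12 ± 0.23 (SD), and the difference of 0.05 did not pass the test (limma adjusted p = 0.725). The dimmer probe rose by 0.20 after quantile normalization (SE 0.05, adjusted p = 0.00163) and differed by 0.18 on the 75th percentile scale (adjusted p = 0.118). Adipoq, Retn, Rbp4 and Apln kept their calls on that scale, with differences of 0.94, 0.48, 0.91 and 1.23. KO and WT overlapped on it for Retn and Apln, and did not for Adipoq and Rbp4.

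**Figure D2:**
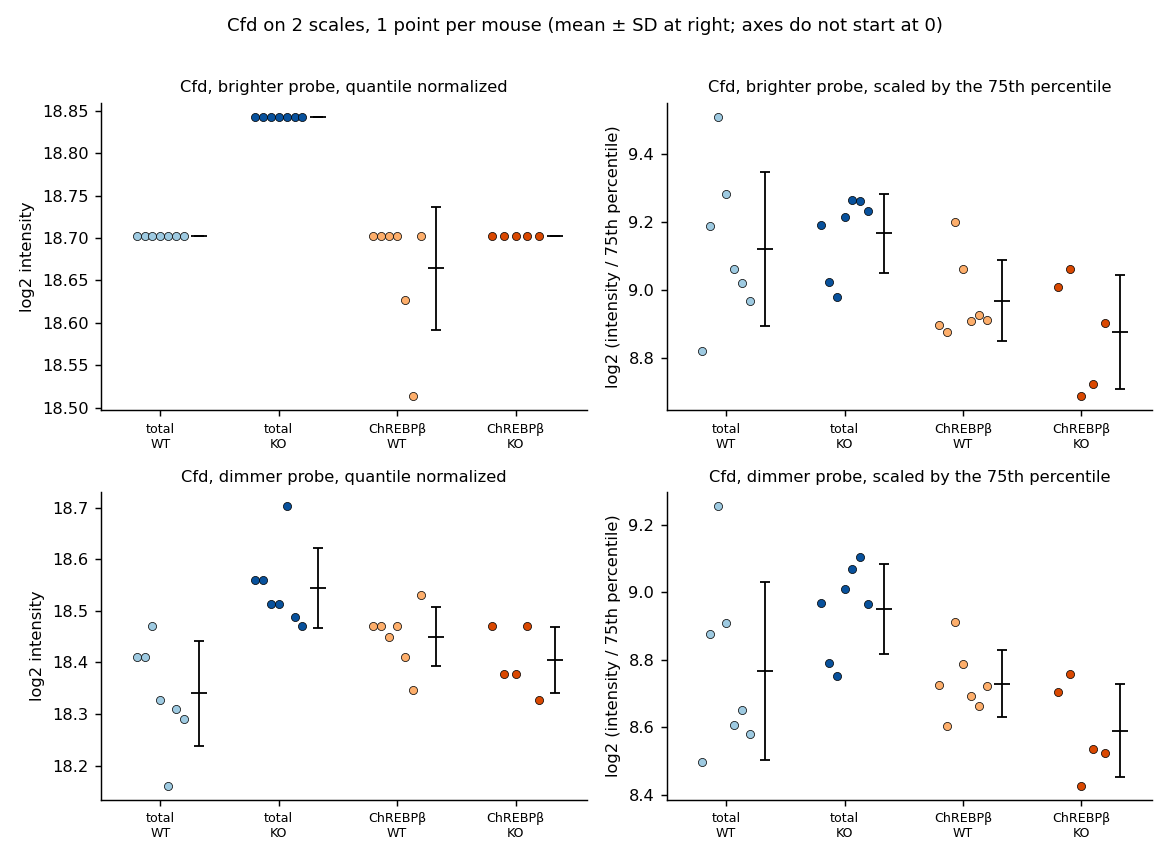
Cfd in the 4 groups on 2 scales, with the brighter probe above and the dimmer probe below. Left, log2 intensity after quantile normalization; right, log2 intensity over the 75th percentile of the array; points are mice and bars the mean ± SD. The brighter probe is fixed at 18.84 and 18.70 in the total line on the left, and KO and WT overlap on the right.

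ChREBPβ deficiency gave no called adipokine difference. In ChREBPβ KO against its WT, 0 of 9 members passed (limma), and 0.0512% of all tested genes were called. At an unadjusted p below 0.05 there were 3 members, Lep, Rbp4 and Sfrp5, all with positive differences. Counted by probe rather than by gene, 3074 of all 38832 tested probes had such an unadjusted p. The median difference of the 9 members was 0.15, and 6 were positive and 3 negative.

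The 5 ChREBPβ KO mice had Adipoq values of 17.26, 17.51, 16.92, 17.43 and 17.44. The WT range was 16.89 to 17.32 (median 17.27). The KO values of 17.51, 17.43 and 17.44 were above this range and the others lay within it. The difference was 0.15 with a 95% interval from −0.05 to 0.35, an interval that lies wholly under the 1.05 measured in total ChREBP KO. For Rbp4, the KO mice read 16.54, 16.80, 16.42, 16.83 and 16.49 and the WT mice 16.07 to 16.72 (median 16.24). Its interval ran from 0.03 to 0.54 around 0.29 (adjusted p = 0.558). Retn in KO was 17.86, 17.63, 17.49, 17.71 and 17.67 against 17.45 to 18.06 in WT (median 17.78), and its interval ran from −0.33 to 0.09. KO and WT overlapped for all 3 genes.

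The ChREBPβ intervals of Lep and Sfrp5 lay above 0, although neither gene was called. Lep was 9.43, 10.07, 8.92, 9.94 and 10.20 in the KO mice and 8.89 to 9.71 in WT (median 9.16). The difference was 0.43, the same size as in total ChREBP KO, with an interval from 0.06 to 0.80 and an adjusted p of 0.557. Sfrp5 was 12.79, 13.94, 12.57, 13.66 and 14.23 in the KO mice and 10.77 to 14.03 in WT (median 12.24). Its difference of 1.06 had an interval from 0.22 to 1.91 and an adjusted p of 0.489. These intervals include differences as large as those of total ChREBP KO, so for Lep and Sfrp5 a difference of that size was not excluded at this number of mice.

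For the remaining members the ChREBPβ intervals were −0.15 to 0.76 for Apln, −0.27 to 0.13 for Nampt, −0.81 to 0.41 for Agt and −0.04 to 0.12 for Cfd. The Cfd value is subject to the same ceiling, since the brighter probe read 18.70 on all 5 KO arrays and on 5 of 7 WT arrays.

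The KO effects themselves differed between the lines for 4 members. The effect of ChREBPβ KO minus that of total ChREBP KO was −0.90 for Adipoq (SE 0.13, limma adjusted p = 3.93e-05), −0.73 for Rbp4 (SE 0.17, adjusted p = 0.00297), −0.62 for Retn (SE 0.14, adjusted p = 0.00243) and −0.96 for Apln (SE 0.30, adjusted p = 0.0226). All 4 were smaller in the ChREBPβ line. Over all tested genes 23.2% were called in this comparison, with 13.1% lower. The same test gave −0.00 for Lep (interval −0.51 to 0.51) and 0.19 for Sfrp5 (interval −0.95 to 1.33), with no call. Nampt (−0.29, adjusted p = 0.12) and Agt (−0.68, adjusted p = 0.234) were not called. The Apln call was lost without replicate 4 of ChREBPβ KO (−0.77, adjusted p = 0.0589). Each effect is measured from its own WT, so this term also holds the difference between the WT groups, given below. Rbp4 means were 16.69 in total ChREBP KO and 16.62 in ChREBPβ KO, against 15.68 and 16.33 in their WT. For Adipoq these were 17.55 and 17.31 against 16.50 and 17.16. Retn had 17.84 and 17.67 against 17.33 and 17.79, and Apln 9.73 and 9.26 against 8.46 and 8.95.

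**Figure D3:**
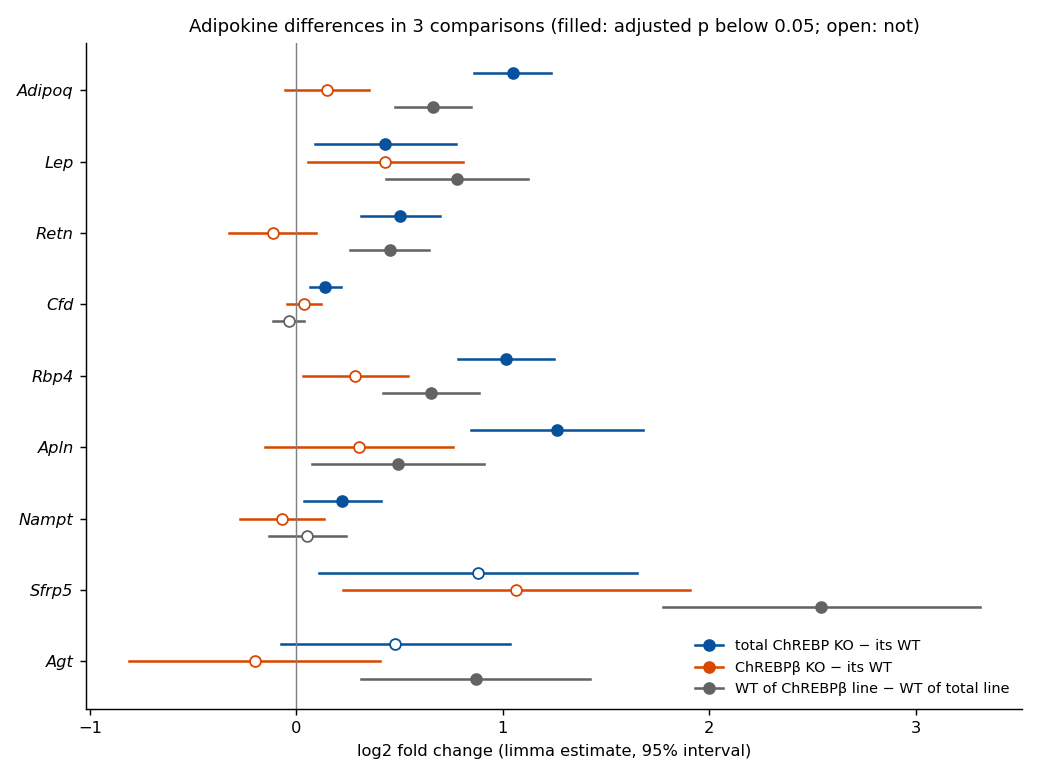
Log2 fold change (horizontal axis) with its 95% interval for the 9 tested adipokines in 3 comparisons. Filled points passed an adjusted p of 0.05 and open points did not; all total ChREBP KO differences lie right of 0, and all ChREBPβ KO points are open.

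The WT mice of both lines were not alike. When ChREBPβ-line WT mice were set against total-line WT mice, 7 of 9 members were higher and 0 were lower, beside 45.9% of all tested genes called (26.2% higher). Of all called probes 56.5% were higher, and 43.9% were when arrays were scaled by the 75th percentile, where 5 members were higher and 0 lower. Sfrp5 had the largest difference, 2.54 (SE 0.37, adjusted p = 5.08e-06), a fold of 5.83. Its WT values were 10.77 to 14.03 in the ChREBPβ line and 8.89 to 10.29 in the total line, with no overlap. The others were Agt (0.87), Lep (0.78), Adipoq (0.66), Rbp4 (0.65), Apln (0.49, with an adjusted p at the threshold) and Retn (0.45). After quantile normalization Adipoq, Lep, Rbp4 and Sfrp5 did not overlap between the WT groups, with the ChREBPβ line higher each time. The same was the case for 10.6% of all genes. Over the 75th percentile of the array only Sfrp5 stayed separate, and Adipoq, Lep and Rbp4 overlapped. Nampt differed by 0.05 and Cfd by −0.04 after quantile normalization, without a call. Marker genes of several cell types differed between the WT groups too. In the ChREBPβ line 10 of 13 adipocyte markers (median 0.49), 9 of 10 fibroblast and preadipocyte markers (median 1.02), 8 of 11 macrophage markers (median 0.83) and 5 of 8 endothelial markers (median 0.31) were higher, and none of these lists held a lower call. All 7 brown and beige adipocyte markers were lower, with a median of −1.75, among them Ucp1 at −6.84 (SE 0.75, adjusted p = 1.04e-07), and all 15 lymphocyte markers were lower as well.

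The order of the group means followed from these differences. For Adipoq it was WT of the total line (16.50 ± 0.17, SD, n = 7), WT of the ChREBPβ line (17.16 ± 0.18, n = 7), ChREBPβ KO (17.31 ± 0.24, n = 5) and total ChREBP KO (17.55 ± 0.08, n = 7). The neighbouring groups of the ChREBPβ line did not differ beyond their spread. Rbp4 and Apln had the same order, with means of 15.68, 16.33, 16.62 and 16.69 for Rbp4 and of 8.46, 8.95, 9.26 and 9.73 for Apln. For Lep, Sfrp5 and Agt both groups of the ChREBPβ line were above both groups of the total line. Lep means rose from 8.51 (WT) and 8.94 (KO) in the total line to 9.28 (WT) and 9.71 (KO) in the ChREBPβ line. Sfrp5 means were 9.83, 10.71, 12.37 and 13.44 in that order of groups, and those of Agt were 10.24, 10.71, 11.10 and 10.90. KO mice of different lines were not compared by a test.

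Marker genes of other cell types moved with the groups. In bulk tissue, fewer cells of a type and less RNA per cell cannot be told apart. Among the adipocyte markers that were higher in total ChREBP KO were Pck1 (2.73, SE 0.17), which makes glycerol phosphate for fat storage, the β3 adrenergic receptor Adrb3 (1.53, SE 0.12), the lipid droplet protein Plin4 (1.20, SE 0.11) and the adipocyte transcription factor Cebpa (1.14, SE 0.08), with adjusted p of 6.48e-09 or lower. The mean level of this list was 15.48 to 15.70 in total ChREBP KO and 14.25 to 14.83 in its WT, without overlap, and 14.97 to 15.47 and 15.00 to 15.23 in ChREBPβ KO and its WT. With that mean level as a covariate, the Adipoq difference in total ChREBP KO was 0.18 (SE 0.16), and that of Rbp4 was 0.59 (SE 0.30).

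The lymphocyte markers had a median difference of −2.53 in total ChREBP KO, and one of −4.81 when WT mice of the ChREBPβ line were compared with those of the total line. Their mean level was 7.61 to 11.09 in total ChREBP KO, 10.71 to 12.48 in its WT, 6.99 to 8.67 in ChREBPβ KO and 7.02 to 7.78 in its WT. Of 12 skeletal muscle markers 5 were higher in total ChREBP KO, with a median of 2.41, and their mean level ranged from 6.98 to 13.38 in KO and from 6.71 to 12.52 in WT. The fast myosin gene Myh4 had a difference of 5.31 (SE 2.12, adjusted p = 0.043). With both marker levels as covariates 4 members in place of 7 were called in total ChREBP KO, while the share of all probes called went from 45.5% to 13.5%. In the difference of the KO effects 1 member in place of 4 was called, and the share of all probes went from 22.5% to 5.59%. Between the WT groups 0 members in place of 7 were called, and the share of all probes went from 45.4% to 3.1%. The part of these cell types in the adipokine differences was not tested.

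Of 11 macrophage markers 4 were lower in total ChREBP KO, among them Cd68 (−1.12) and Lyz2 (−0.89), and the list's mean level was 10.67 to 11.29 in KO and 10.85 to 12.59 in WT. Of 8 endothelial markers 4 were higher. Of 10 fibroblast and preadipocyte markers 1 was higher, Dpt (1.48), which encodes an extracellular matrix protein. No epithelial marker was called among 5 tested. Of 7 brown and beige adipocyte markers 4 were lower and 1 was higher. The thermogenic uncoupling protein gene Ucp1 fell by 6.87 (SE 0.75, adjusted p = 6.88e-08), and Elovl3, Cidea and Cpt1b fell by 3.90, 2.07 and 1.57. None of the genes of these lists was called in ChREBPβ KO.

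**Figure D4:**
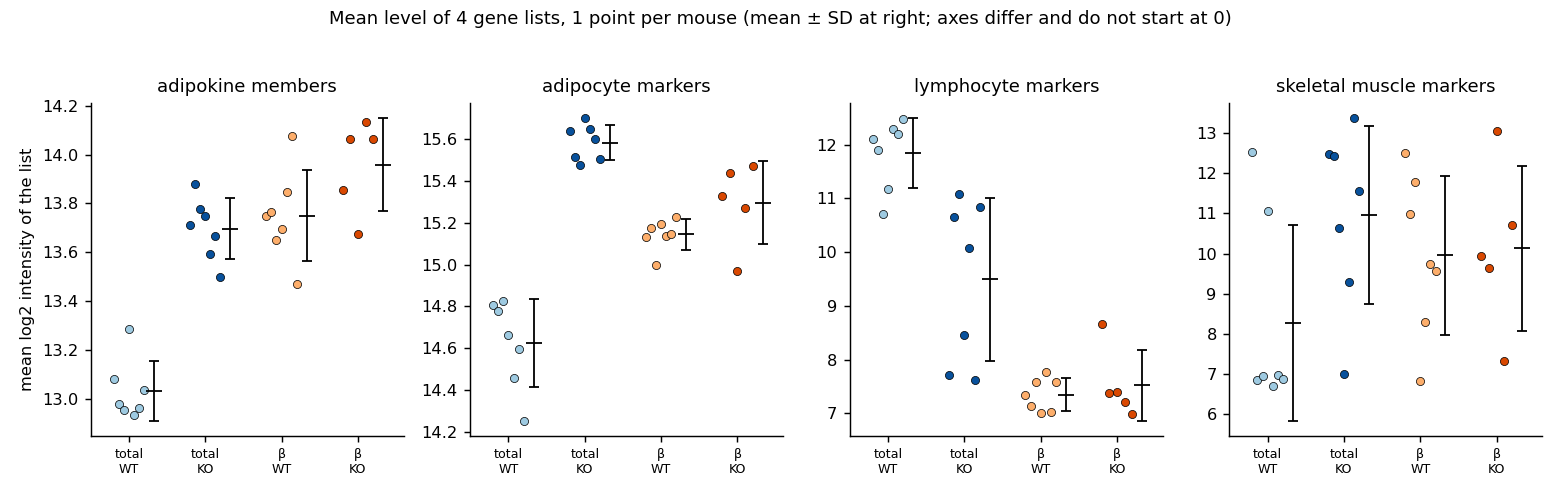
Mean log2 intensity of the 9 adipokines, 13 adipocyte markers, 15 lymphocyte markers and 12 skeletal muscle markers on each array, by group, with the mean ± SD at the right. Adipokines and adipocyte markers of total ChREBP KO lie above its WT without overlap, whereas the lymphocyte and muscle levels overlap and spread over several log2 units.

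Genes that act with the adipokines showed a mixed picture. Of 21 tested receptors and partners, 4 were higher and 4 lower in total ChREBP KO, with a median of 0.00. Over all tested genes 25.8% were called higher and 20.1% lower. The apelin receptor gene Aplnr rose by 0.71 (SE 0.16, adjusted p = 0.000713), together with its ligand. Wnt5a, the WNT ligand that SFRP5 binds, rose by 0.55 (SE 0.10, adjusted p = 4.7e-05), and Ace, the enzyme that makes angiotensin II, by 0.45 (SE 0.18, adjusted p = 0.0447). Cfp, which encodes properdin and stabilises the complement convertase that adipsin helps to form, fell by 0.66 (SE 0.24, adjusted p = 0.0248). The adiponectin receptors Adipor1 (0.03) and Adipor2 (−0.04) and the leptin receptor Lepr (−0.38, adjusted p = 0.0754) were not called.

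Of 6 genes for assembly and release of adiponectin, 3 were higher in total ChREBP KO, beside 25.8% of all tested genes. Gstk1, which encodes the protein DsbA-L that promotes adiponectin multimers, rose by 0.96 (SE 0.11, adjusted p = 1.41e-07), close to the size of the Adipoq rise. The chaperone gene Hspa5 rose by 0.35 (SE 0.09, adjusted p = 0.00152) and the disulfide isomerase gene Pdia3 by 0.20 (SE 0.08, adjusted p = 0.0425). In the difference of the KO effects, Gstk1 was called at −0.88 (adjusted p = 0.000382).

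Among 36 other tested genes of secreted adipocyte proteins, 15 were higher and 6 lower in total ChREBP KO, with a median of 0.26. The list thus held calls in both directions, as did all tested genes, of which 25.8% were called higher and 20.1% lower. Fgf21, a metabolic hormone, fell by 3.43 (SE 0.28, adjusted p = 5.84e-10). Gm6484, an older symbol of Angptl8, whose product restrains lipoprotein lipase, fell by 1.85 (SE 0.21, adjusted p = 1.31e-07). Inhbb, a subunit gene of activin B, rose by 2.22 (SE 0.21, adjusted p = 5.44e-09), and the lipoprotein lipase gene Lpl by 1.54 (SE 0.08, adjusted p = 2.61e-13). In ChREBPβ KO no gene of these 3 lists was called, and the medians were −0.05, 0.08 and −0.02 in the order given.

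**Figure D5:**
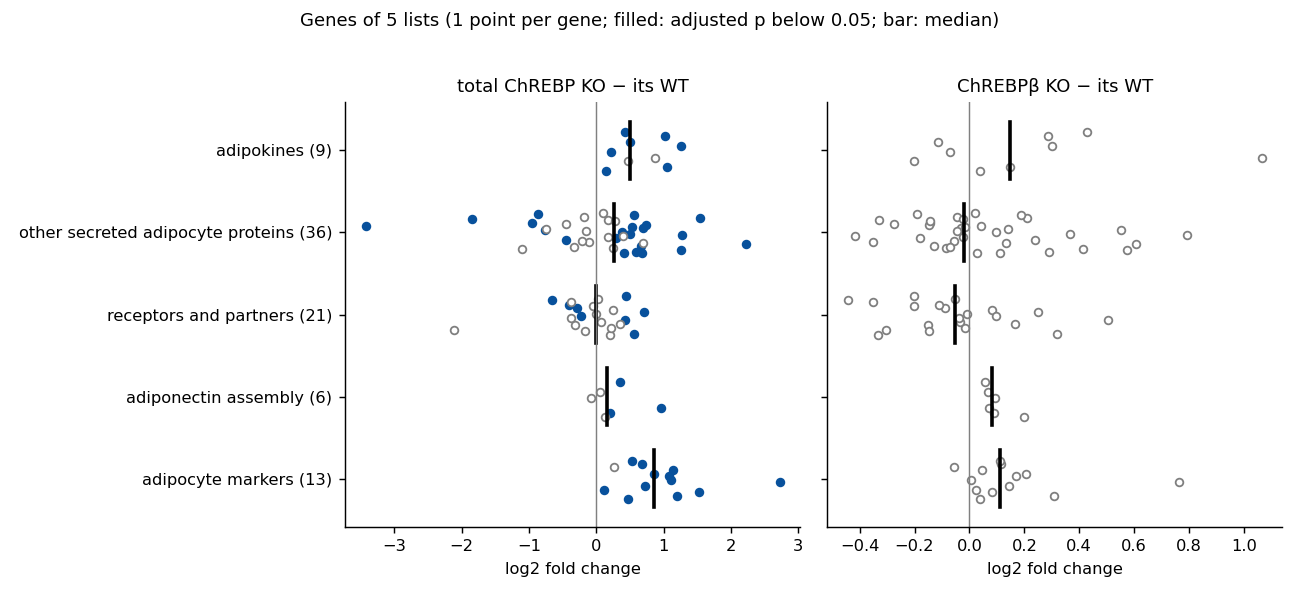
Log2 fold change (horizontal axes, with different ranges) of each tested gene of 5 lists in total ChREBP KO (left) and ChREBPβ KO (right), with 1 point per gene, filled where the adjusted p was below 0.05, and a bar at the median. Adipocyte markers and adipokines lie to the right in total ChREBP KO, other secreted proteins lie on both sides, and no point is filled in ChREBPβ KO.

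The adipokines also differed in which genes they followed from mouse to mouse. After the mean of each group was subtracted, the gene most similar to Adipoq over the 26 arrays was Ces1d, a carboxylesterase with lipase activity (Pearson r = 0.91, and 0.82 over all arrays without subtraction), followed by Vcl (0.86). Lep was followed by Palld (0.84) and Aifm2 (0.83), and Rbp4 by Degs1 and Cald1 (0.86 each). Vmn1r173 (0.85) was among the 2 genes most similar to Retn. For Apln the leading genes were Micall2 (0.77) and Gm39090 (0.76), for Nampt Naa20 and Naa25 (0.81 each), for Sfrp5 Ehd3 and Cdkl4 (0.80 each), and for Agt Msln (0.74) and Cldn1 (0.72). Cfd was closest to Hpcal4 (0.81, and 0.72 over all arrays) and Mcoln1 (0.75, and 0.28 over all arrays). Within groups its brighter probe varied almost only through replicates 6 and 7 of the WT of the ChREBPβ line (18.63 and 18.51). The Cfd correlations after subtraction rest on those mice. All genes named here are among the highest of 17303 genes compared. The arrays share the normalization and the tissue makeup described above, and no test was attached. None of the adipokines was another adipokine's closest gene.

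The promoters are shown for the 4 members whose KO effects differed between the lines, all with the smaller effect in the ChREBPβ line. Promoter windows of 250 bases before and 50 bases after the annotated start were taken from RefSeq for build GRCm38, where all 10 members matched and Rbp4 had a pair of starts. The exact E box letters CACGTG were searched on both strands and were found in 0 of 10 members and in 7.15% of 32851 promoters. A whole carbohydrate response element was not searched for. TATAAA (13.6% of promoters) was found for Rbp4 and Agt, and CCAAT (37.4%) for Adipoq, Rbp4, Serpina12 and Sfrp5. Below, the 250 bases before the start are given 5′ to 3′ on the strand of the gene, with matches of TATAAA or CCAAT on either strand in capitals. For Rbp4 the start with the TATAAA match is shown.
Adipoq (chr16:23146286-23146535, plus strand): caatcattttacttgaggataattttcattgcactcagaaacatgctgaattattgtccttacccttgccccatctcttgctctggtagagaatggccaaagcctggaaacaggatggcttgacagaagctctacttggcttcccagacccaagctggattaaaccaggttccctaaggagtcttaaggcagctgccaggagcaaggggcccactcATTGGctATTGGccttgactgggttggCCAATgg
Retn (chr8:3655520-3655769, plus strand): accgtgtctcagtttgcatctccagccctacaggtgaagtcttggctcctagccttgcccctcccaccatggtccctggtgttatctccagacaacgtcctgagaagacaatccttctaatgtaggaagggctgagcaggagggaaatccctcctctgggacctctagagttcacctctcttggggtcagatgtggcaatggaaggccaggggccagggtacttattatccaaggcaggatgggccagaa
Rbp4 (chr19:38124812-38125061, minus strand): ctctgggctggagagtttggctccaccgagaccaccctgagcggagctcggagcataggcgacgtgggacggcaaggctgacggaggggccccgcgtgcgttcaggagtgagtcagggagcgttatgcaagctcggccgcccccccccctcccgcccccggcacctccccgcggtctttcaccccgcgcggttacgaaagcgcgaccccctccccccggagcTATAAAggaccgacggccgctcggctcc
Apln (chrX:48034854-48035103, minus strand): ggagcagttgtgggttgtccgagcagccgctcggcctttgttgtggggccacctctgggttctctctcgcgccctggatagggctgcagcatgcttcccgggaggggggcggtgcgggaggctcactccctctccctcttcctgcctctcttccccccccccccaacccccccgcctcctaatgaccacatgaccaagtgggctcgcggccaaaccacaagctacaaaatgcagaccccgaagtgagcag
The absence of a match says only that these letters are not in these windows.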

How the data were processed

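RNA of subcutaneous white adipose tissue from single mice was labelled with Cy3 and hybridised to 1-colour Agilent arrays. Per the labels, spots were read with Agilent Feature Extraction 10.10.1.1, and the deposited scanner files hold median, mean, background and processed intensity values with quality calls. A log2 table was deposited too, for which the authors read and filtered the spots with limma and quantile normalized them with preprocessCore. Its columns were used as an alternative.

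Main values were recomputed from the median intensity of each spot without background subtraction. A probe was kept when its spot was found, positive and well above background on 21 or more of the 26 arrays, or on 75% of the arrays of a group. The study's methods state 26 of 32 arrays, and this was scaled. Outlier spots were set to missing (97 values). Replicated spots were reduced to their median before quantile normalization, the reverse of the order in the methods, because this matched the deposited log2 table (median absolute difference 0.000782 over 38499 probes). No columns of other samples were present.

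A linear model with 4 group means (limma 3.58.1 in R 4.3.3, lmFit and eBayes) was fitted to the 26 arrays and left 22 residual degrees of freedom. Benjamini-Hochberg adjustment was made over 38832 probes, with calls at an adjusted p of 0.05. Groups came from the sample labels. Precision was limited by the number of arrays.

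A gene was represented by its brightest probe. Named were Mlxipl, all members, up to 4 called genes with the largest change per companion list, and the 2 genes most correlated with each member. Values of some single genes that this rule or the marker lists would give are not reported here. For some marker lists fewer genes are named, and receptors without a call were added after their values were seen. The members and lists were chosen with earlier results of these data known. Alternatives covered scaling, filters, batches, slides, array weights, replicate numbers, marker levels and each array left out. Probe positions are mm9; promoters are RefSeq on GRCm38.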

Additional observations from a re-analysis of the deposited data

Results flagged for a closer look

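The KO effect of 6 adipokine probes differed between the lines in limma's interaction term, beside 22.5% of all 38832 probes called in it. This term also holds the difference between the WT groups of the lines. The ChREBPβ effect minus the total effect was −0.90 for Adipoq (adjusted p = 3.93e-05), −0.73 for Rbp4 (adjusted p = 0.00297), −0.96 for Apln (adjusted p = 0.0226), −0.62 and −0.54 for the Retn probes (adjusted p = 0.00243 and 0.00125) and −0.25 for the dimmer Cfd probe (adjusted p = 0.017), which is near the ceiling of the scale.

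A single mouse stood apart from its group for 4 of 41 groups of values tested by Dixon's criterion, where chance flags about 1 in 20. Agt was 11.86 in total ChREBP KO replicate 2, and the next mouse had 10.80. Retn (the brighter probe) was 17.74 in total ChREBP KO replicate 7, against 17.83 in the next. The brighter Cfd probe was 18.51 in replicate 7 of the WT of the ChREBPβ line, against 18.63, and the dimmer Cfd probe was 18.70 in total ChREBP KO replicate 5, against 18.56.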

How the results depend on the processing

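The count of called members kept within 1.5 times its value under the other scalings, background correction, filters, array weights, wash batch block and random slide block, and in the authors' log2 table. The count for ChREBPβ KO was 0 under every alternative run. With each array left out in turn the counts ranged from 5 to 8 in total ChREBP KO, from 0 to 0 in ChREBPβ KO, from 4 to 4 for the difference of the KO effects and from 6 to 7 between the WT groups. In total ChREBP KO, 4 members were called with slide as a fixed block, with lymphocyte and muscle marker levels as covariates, and without the 12 arrays of high muscle marker level (mean above 10, chosen after seeing the data), and 0 with the adipocyte marker level as a covariate (also chosen then). The share of all probes called in these 4 fits was 21.7%, 13.5%, 28.3% and 3.75%. For the difference of the KO effects these counts were 0, 1, 1 and 0, with 1.59%, 5.59%, 7.93% and 2.95% of all probes called. Between the WT groups, 0 were called with lymphocyte and muscle levels and 2 with the adipocyte level as a covariate, with 3.1% and 17.4% of all probes. The cause was not tested. In the adipocyte covariate fit, differences changed sign for Retn in total ChREBP KO (−0.26 and, at the second probe, −0.13), Lep (−0.39), the dimmer Cfd probe (−0.0134), Retn in the difference of the KO effects (0.0201) and the second Retn probe between the WT groups (−0.0296), and none of these was called.

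The labels did not state whether equal replicate numbers pair the mice, and the few pairs at hand cannot decide it. The correlation of same-numbered mice ran from −0.36 to 0.51 over 6 pairs of the total line and from −0.33 to 0.14 over 4 pairs of the ChREBPβ line, and 2 and 0 pairs correlated best with their own number. With the replicate block, 6 members were called in total ChREBP KO, 0 in ChREBPβ KO and 3 in the difference of the KO effects. The block was set within each line, so that fit cannot estimate the difference between the WT groups. Sfrp5 in total ChREBP KO was called in 4 fits, among them the scaling by the 75th percentile (0.90, adjusted p = 0.0489), and without replicate 8 of total ChREBP KO (0.97) or replicate 7 or 8 of the WT of the ChREBPβ line (0.88 each). The Nampt difference of the KO effects was called without replicate 4 of ChREBPβ KO (−0.38). Without replicate 4 of the total line's WT or replicate 7 of the WT of the ChREBPβ line, the dimmer Cfd probe was called between the WT groups (0.13 each). The Apln call between the WT groups was lost without any of 18 of 26 arrays. A fit on the compared groups alone gives no separate value for the difference of the KO effects, which uses all 4 groups. Serpina12 was too dim for any fit but that without a filter.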
